A study of Homo sapiens with 12 samples.

Results

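The mitochondrially encoded genes are the genes carried by the mitochondrion's own circular chromosome, taken here as every gene of chromosome M whose symbol begins with MT-. The 12 count tables held 21 of them among 40649 genes: 13 mRNAs, 2 rRNAs and 6 tRNAs. The chromosome has 37 annotated genes, and the other 16 tRNA genes were not analysed here. The libraries came from HK-2 cells, an immortalised human line derived from the epithelium of the kidney's proximal tubule, in 3 groups of 4. The group shNC had the genotype label ShNC and no treatment. The group shNC_H2O2 had the same genotype label and received hydrogen peroxide (H2O2) at 150 µM for 48 hours, which the submitters use as oxidative stress. The group shYAP1_H2O2 was labelled as a Yap1 knockdown and received the same H2O2. No untreated knockdown library is among the 12, so H2O2 and the knockdown cannot be separated in the comparison of shYAP1_H2O2 with shNC. The labels do not say whether the knockdown cells are 1 clone, or whether each library was grown as its own culture. The p-values therefore reflect the spread among these libraries, which may be technical.

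Human mitochondrial DNA encodes core subunits of the respiratory chain and of ATP synthase, together with the rRNAs and tRNAs that translate them inside the organelle. Each strand is transcribed as a long precursor by the polymerase POLRMT, and the mRNAs and rRNAs are cut out where tRNAs lie between them. Most of the mRNAs then receive short poly(A) tails, which complete the stop codon of several of them. The rRNAs carry only very short tails and mature tRNAs end in CCA. Proximal tubule cells of the kidney depend on oxidative phosphorylation for ion transport. Libraries here were made from RNA selected with oligo(dT), which binds poly(A), so RNAs with little or no tail are not counted in proportion to their amount in the cell.

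The layout of these genes decides what a read can be assigned to, and a few sequences show it. MT-ATP8 (chrM:8366-8572, GRCh38, plus strand), a small subunit of ATP synthase, shares its last 46 bases, in capitals, with MT-ATP6 (chrM:8527-9207). The reading frame of MT-ND4L, a complex I subunit, likewise ends inside MT-ND4, with the shared 7 bases in capitals in its last 40 bases (chrM:10727-10766). Reads over such a stretch fit both genes, and how they were counted is not given in the sources used here.
MT-ATP8: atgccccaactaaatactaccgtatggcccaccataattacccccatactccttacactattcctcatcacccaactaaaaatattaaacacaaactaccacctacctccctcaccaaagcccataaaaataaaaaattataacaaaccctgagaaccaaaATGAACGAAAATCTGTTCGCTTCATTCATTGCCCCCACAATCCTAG
MT-ND4L: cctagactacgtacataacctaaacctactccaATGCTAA

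The annotated genes differ in how they end, and where each RNA ends in these cells was not measured. The last 30 bases are shown for 4 genes whose share of mitochondrial RNA differed between groups, described below, and for MT-ND6, the only mRNA of the minus strand, with the stop codon, or the part of it that the DNA encodes, in capitals. As annotated, 6 of the 13 mRNAs end in T or TA, so that their stop codon is completed by the tail (MT-ND1, MT-ND2, MT-CO3, MT-ND3, MT-ND4 and MT-CYB), and 7 carry a whole stop codon. MT-ATP6 is among the 7 only by annotation: the last base of its stop codon, 9207, is also the first base of MT-CO3. The rRNAs have none. MT-CO3 lies at chrM:9207-9990, MT-CO1 at chrM:5904-7445, MT-RNR1 at chrM:648-1601, MT-RNR2 at chrM:1671-3229 and MT-ND6 at chrM:14149-14673. All sequences are the reference's (GRCh38, GENCODE release 29), not read from these cells.
MT-CO3: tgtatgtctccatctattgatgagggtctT
MT-CO1: ttcgaagaacccgtatacataaaatctAGA
MT-RNR1: aagtgtactggaaagtgcacttggacgaac
MT-RNR2: tatacccacacccacccaagaacagggttt
MT-ND6: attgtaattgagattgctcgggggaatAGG

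The libraries held 30789997 to 46582873 counts. YAP1, the gene targeted in the third group, was at 132.5 ± 7.25 CPM (counts scaled to library size with TMM factors and expressed as CPM by edgeR, mean ± SD, n = 4) in shNC, 156.2 ± 5.19 in shNC_H2O2 and 128.1 ± 11.7 in shYAP1_H2O2. It was lower in the libraries labelled shYAP1_H2O2 than in shNC_H2O2 (log2 fold change -0.29 ± 0.07 (SE), edgeR adjusted p = 0.00346), and against shNC it did not pass (-0.05 ± 0.07, adjusted p = 0.636). The labels name both a cell line and a kidney tissue. The keratin KRT8 (360 to 543 CPM) and EPCAM (134 to 205 CPM) marked epithelial cells, while CDH1, another epithelial marker, was at 1.07 to 6.72 CPM. The 5 immune and 4 endothelial markers stayed at 0.452 CPM or less, with MS4A1 at 0 in every library. Of the proximal tubule markers DPP4 (123 to 297 CPM) and MME (25.1 to 44.8 CPM) were present, while ANPEP, AQP1, LRP2 and CUBN did not exceed 0.475 CPM. Of the 5 fibroblast markers LUM and COL1A1 were present, while PDGFRA did not exceed 0.127 CPM. PDGFRB was at 1.14 to 2.32 CPM and DCN at 0.451 to 2.19 CPM.

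Several of these markers moved with the groups. The 5 fibroblast markers summed to 109.9 to 113 CPM in shNC, 236 to 255 in shNC_H2O2 and 143 to 172 in shYAP1_H2O2. Most of each sum was LUM. Of the 4 tested, 3 were higher and 1 lower in shNC_H2O2 against shNC, where 46.6% of all genes passed. In shYAP1_H2O2 against shNC_H2O2, 0 were higher and 2 lower, where 43% passed. LUM was at 98.8 ± 2.92, 216.7 ± 9.61 and 148.6 ± 13.4 CPM in the 3 groups (log2 fold change 1.13 ± 0.07, then -0.54 ± 0.07 between the groups given H2O2), and COL1A1 at 10.1 ± 1.79, 26.6 ± 1.91 and 10.2 ± 0.754 (1.41 ± 0.12, then -1.39 ± 0.12). The 9 proximal tubule markers summed to 280 to 336, 162 to 170.2 and 285 to 325 CPM, led by DPP4 (-0.97 ± 0.08, then 0.96 ± 0.08). The 6 epithelial markers summed to 967 to 1240.5, 1253 to 1303 and 1123 to 1164 CPM. Of these 6, 2 were higher and 2 lower in each of the same 2 comparisons. KRT7 was at 3.54 ± 0.812, 43.05 ± 3.53 and 4.60 ± 0.559 CPM, and EPCAM moved the opposite way (-0.395 ± 0.06, then 0.37 ± 0.06). The immune markers summed to at most 0.486 CPM and the endothelial markers to at most 0.435 CPM in any library. The part of these marker changes in the results on mitochondrial genes was not tested.

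In 2 libraries, shNC replicate 4 and shYAP1_H2O2 replicate 3, the mitochondrial genes took a far larger part of the counts than in their group mates. The mitochondrial share was 4.96%, 5.04%, 4.91% and 13.9% of counts in shNC replicates 1 to 4. In shNC_H2O2 it was 5.64%, 5.49%, 5.51% and 5.53%, and in shYAP1_H2O2 it was 4.86%, 4.54%, 11.3% and 4.60%. Among the other 10 libraries the share thus stayed between 4.54% and 5.64%. These 2 libraries also stood apart in nuclear genes. The chi-square per degree of freedom between libraries of one group, over nuclear genes, was 2.73 to 5.73 for pairs without them and 42.8 to 62.7 for pairs with one of them. Results on the mitochondrial genes are therefore given for all 12 libraries and for the other 10. Since both libraries were set aside for their mitochondrial share, p-values from the 10 describe only those 10. That choice also lowers the spread of the mitochondrial genes. Their errors, p-values and calls from the 10 are therefore a description and no test.

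**Figure D1:**
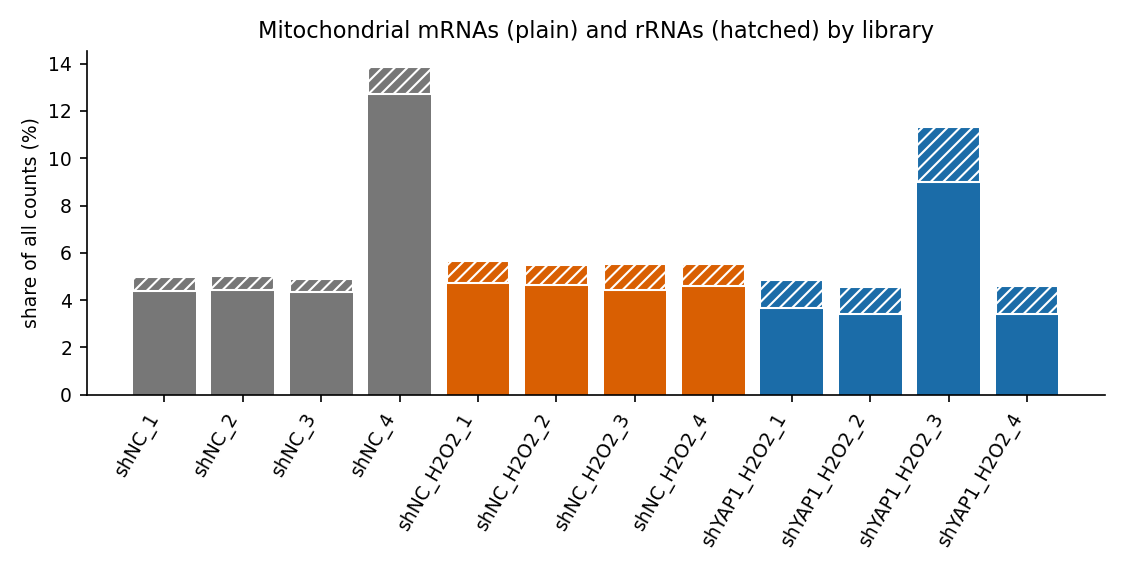
Share of all counts (y axis, percent) taken by mitochondrial mRNAs (plain) and rRNAs (hatched) in each library (x axis, coloured by group). The bars of shNC replicate 4 and shYAP1_H2O2 replicate 3 reach 13.9% and 11.3%, and the others end between 4.54% and 5.64%.

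The mean mitochondrial share did not separate the 3 groups over all 12 libraries. It was 7.19% ± 4.45 in shNC, 5.54% ± 0.0669 in shNC_H2O2 and 6.33% ± 3.34 in shYAP1_H2O2 (mean ± SD, n = 4), with overlapping ranges in every pair of groups. Without the 2 libraries it was 4.97% ± 0.0626 in shNC (n = 3) and 4.66% ± 0.172 in shYAP1_H2O2 (n = 3). On those values the 4 shNC_H2O2 libraries lay above the 3 of shNC and the 3 of shYAP1_H2O2, and the order of the means reversed: the log2 ratio of mean shares for shNC_H2O2 against shNC went from -0.38 to 0.16, and that for shYAP1_H2O2 against shNC_H2O2 from 0.19 to -0.25. A share cannot tell fewer mitochondrial transcripts from more nuclear RNA per cell.

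The mRNA and rRNA parts of the share behaved differently across groups. Mitochondrial mRNAs took 4.36% to 4.42% of counts in the 3 other shNC libraries, 4.44% to 4.72% in shNC_H2O2 and 3.39% to 3.66% in the 3 other shYAP1_H2O2 libraries. The rRNAs took 0.553% to 0.615%, 0.860% to 1.07% and 1.14% to 1.199% of counts in the same libraries. Thus in the 10 libraries mRNAs were lowest and rRNAs highest in shYAP1_H2O2, without overlap with either other group.

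The ratio of rRNA to mRNA was distinct in each group in all 12 libraries, including the 2 of high share. For each 100 counts of mitochondrial mRNA there were 12.7, 13.9, 12.7 and 9.09 counts of rRNA in shNC, 19.5, 18.6, 24.1 and 20.2 in shNC_H2O2, and 32.8, 33.6, 25.9 and 34.9 in shYAP1_H2O2. The highest shNC library lay under the lowest of shNC_H2O2, and the highest of shNC_H2O2 under the lowest of shYAP1_H2O2. Both libraries of high share had the lowest ratio of their group. This ratio was described and not tested, as it is a score over the genes.

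MT-RNR1 encodes the 12S rRNA of the small subunit of the mitochondrial ribosome, and it was the gene with the clearest difference. It stood at 534, 715, 511 and 1014 CPM in shNC. The values were 624, 582, 857 and 655 CPM in shNC_H2O2, and 1712, 1617, 3552 and 1708 in shYAP1_H2O2. All 4 libraries labelled shYAP1_H2O2 lay above all 8 others, and shNC and shNC_H2O2 overlapped. MT-RNR1 was higher in shYAP1_H2O2 than in shNC_H2O2 by 1.66 ± 0.30 on the log2 scale (edgeR quasi-likelihood test, Benjamini-Hochberg adjusted p = 0.000876) and than in shNC by 1.63 ± 0.30 (adjusted p = 0.00152). It passed in both comparisons under each of 22 other settings, at 1.31 to 1.79 and 1.28 to 1.95. With all 12 libraries scaled by mitochondrial mRNA it was the only member called in these 2 comparisons, and none was called in shNC_H2O2 against shNC, where 4.25% (2.57% higher and 1.67% lower), 2.07% (1.8% higher and 0.265% lower) and 8.14% (5.64% higher and 2.5% lower) of genes passed in turn. Between shNC_H2O2 and shNC it was at -0.03 ± 0.29 (adjusted p = 0.945).

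MT-RNR2, the 16S rRNA of the large subunit, followed another order. Its level was 5017, 5394, 5048 and 11760 CPM in shNC, 8229, 7682, 9563 and 8315 in shNC_H2O2, then 10118, 9640, 21623 and 10023 in shYAP1_H2O2. Every shYAP1_H2O2 library lay above every shNC_H2O2 library, by a small margin, and shNC replicate 4 lay above all 4 of shNC_H2O2. In the fit of all 12 libraries it passed in no comparison, with 0.31 ± 0.33 for shNC_H2O2 against shNC (adjusted p = 0.471), 0.61 ± 0.33 for shYAP1_H2O2 against shNC_H2O2 (adjusted p = 0.168) and 0.92 ± 0.33 for shYAP1_H2O2 against shNC (adjusted p = 0.0557). Without shNC replicate 4 alone the last of these passed, at 1.31 (adjusted p = 0.0057). Without both, MT-RNR2 was higher in all 3 comparisons, by 0.71 ± 0.07, 0.23 ± 0.07 and 0.94 ± 0.08. Results without these libraries are a description, as they were left out for their mitochondrial share.

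The 2 rRNAs were therefore not in one proportion. There were 9.39, 7.55, 9.89 and 11.6 counts of MT-RNR2 for each count of MT-RNR1 in shNC, and 13.2, 13.2, 11.2 and 12.7 in shNC_H2O2. In shYAP1_H2O2 there were 5.91, 5.96, 6.09 and 5.87. The values of shYAP1_H2O2 lay within a range narrower than that of either other group and below all 8 of their libraries. The library of high share in that group, at 6.09, was close to its mates.

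Scaling to all mitochondrial mRNA removes the shift in share. Members that kept groups apart on that scale in all 12 libraries are given beside the share of all genes. The plot of counts per 100 counts of mitochondrial mRNA shows 4 of them. Of the 16 members that passed the filter on low counts, 4 did not overlap between shNC_H2O2 and shNC on this scale (MT-RNR2 and MT-CO3 above, MT-ATP6 and MT-ND4 below), where 31.2% of all tested genes did not overlap. That count lies under the share of all genes. Between shYAP1_H2O2 and shNC_H2O2 there were 7 (MT-RNR1, MT-RNR2, MT-CO1, MT-ND4 and MT-TP above, MT-CO3 and MT-ND3 below), against 14% of all genes. For shYAP1_H2O2 against shNC there were 5 (MT-RNR1, MT-RNR2, MT-CO2 and MT-TP above, MT-ATP6 below), against 2.75%. Without the 2 libraries the members that did not overlap were 8, 11 and 10, against 58.7%, 64.6% and 65.1% of all genes. The first of these counts lies under its share and the other 2 lie near theirs. In CPM over all 12 libraries, the members that did not overlap were 2, 2 and 1, against 48%, 45.2% and 29.7% of all genes, and in the 10 they were 7, 12 and 13, against 59.6%, 56.8% and 55.2%. The spread in mitochondrial mRNA enters every nuclear gene on the scale of mitochondrial mRNA, so the background on it moves with the 2 libraries. These 3 comparisons share libraries and are not independent.

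**Figure D2:**
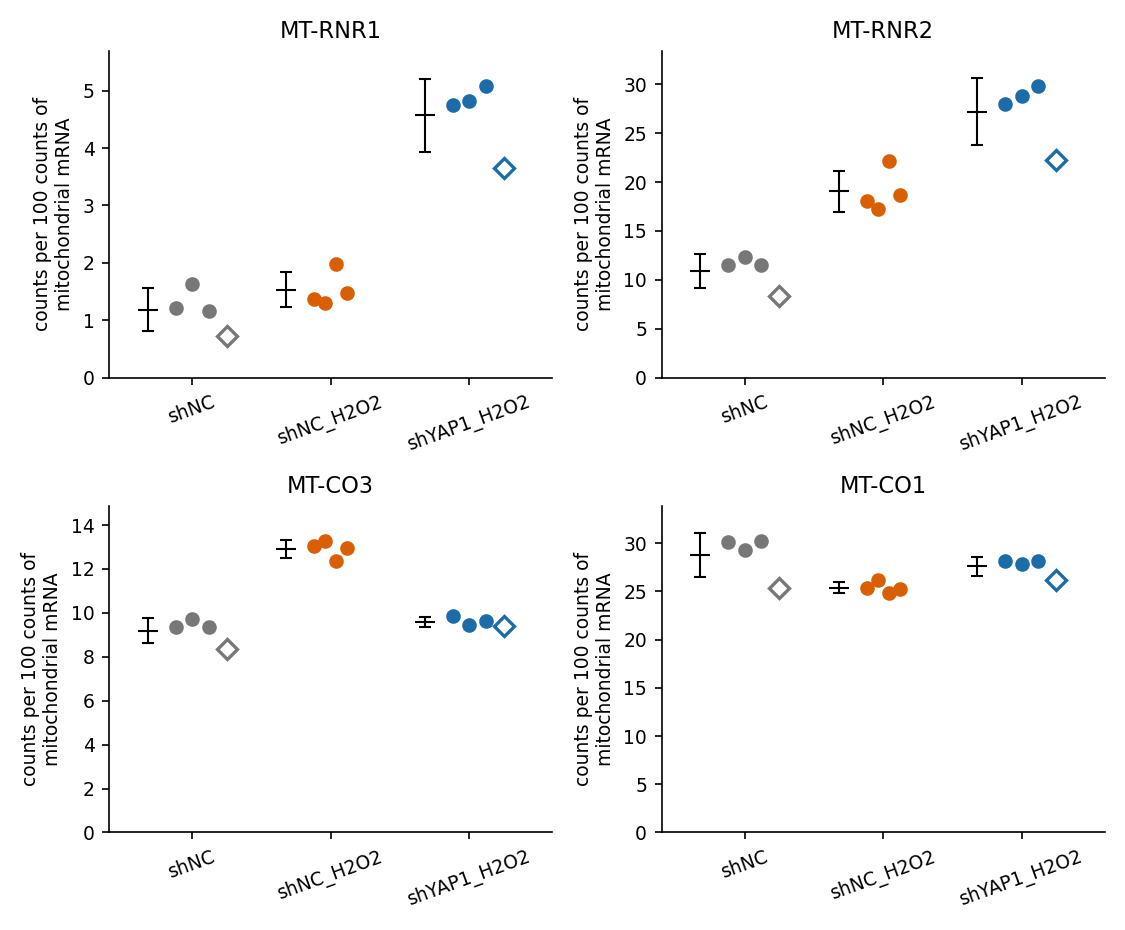
Counts of MT-RNR1, MT-RNR2, MT-CO3 and MT-CO1 (y axes) for each 100 counts of mitochondrial mRNA in each library, by group (x axis). Open diamonds are shNC replicate 4 and shYAP1_H2O2 replicate 3, and black marks are the mean ± SD of all 4 libraries. MT-CO3 lies at 12.4 to 13.3 in shNC_H2O2 and at 8.36 to 9.87 in the other groups.

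MT-CO3, a core subunit of cytochrome c oxidase (complex IV), was the mRNA with the most distinct place in shNC_H2O2. Its level was 4083, 4273, 4100 and 11745 CPM in shNC, 5930, 5911, 5344 and 5755 in shNC_H2O2, then 3563, 3164, 9137 and 3239 in shYAP1_H2O2. On that scale the groups overlapped through the 2 libraries of high share. As counts per 100 of mitochondrial mRNA it was 9.34, 9.74, 9.36 and 8.36 in shNC, 13.04, 13.3, 12.4 and 12.9 in shNC_H2O2, and 9.87, 9.44, 9.38 and 9.64 in shYAP1_H2O2. All 4 libraries of shNC_H2O2 lay above the 8 others on this scale. With all 12 libraries the fold changes were -0.08 ± 0.44 for shNC_H2O2 against shNC (adjusted p = 0.903) and -0.26 ± 0.44 for shYAP1_H2O2 against shNC_H2O2 (adjusted p = 0.665). With the 10 libraries they were 0.46 ± 0.04 and -0.79 ± 0.04. When those libraries were scaled by mitochondrial mRNA, the fold changes were 0.45 ± 0.04 and -0.42 ± 0.04. Values from the 10 are a description, as those libraries were kept by the share that these genes make up.

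MT-CO1, the catalytic core of the same complex and the most abundant mitochondrial mRNA by counts, went the other way. It made up 30.1, 29.3, 30.3 and 25.3 of each 100 mRNA counts in shNC, 25.3, 26.1, 24.8 and 25.3 in shNC_H2O2 and 28.2, 27.8, 26.2 and 28.2 in shYAP1_H2O2. Only shNC replicate 4 kept shNC from lying wholly above shNC_H2O2. Over the 10 libraries, again as a description, MT-CO1 fell in shNC_H2O2 against shNC by 0.22 ± 0.03 on the log2 scale. Its mean in shYAP1_H2O2 was lower again by library scaling, at -0.22 ± 0.03 against shNC_H2O2, and higher when scaled by mitochondrial mRNA, at 0.14 ± 0.04. MT-CO2, the remaining mitochondrially encoded subunit of that complex, stayed between 10.1 and 11.7 of each 100 mRNA counts in all 12 libraries.

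With all 12 libraries, none of the 16 members passed the test for H2O2 in the cells of genotype ShNC (edgeR, 0 higher and 0 lower, and 0 at an unadjusted p under 0.05), where 46.6% of all tested genes passed (23.9% higher and 22.6% lower). DESeq2 called 1, the tRNA MT-TF, which had 0 to 5 counts a library. The members' median log2 fold change was -0.57, beside 0.00 for all genes. The high mitochondrial share of shNC replicate 4 enters the fold change of every member, so they are not independent. In the 10 libraries 7 were higher and 2 lower, where 59.4% of genes passed (29.8% higher and 29.6% lower), and the median was 0.10. The 7 were MT-RNR2, MT-CO3, the tRNA MT-TP (0.54 ± 0.09), the complex I subunits MT-ND1 (0.20 ± 0.03), MT-ND2 (0.10 ± 0.03) and MT-ND3 (0.12 ± 0.03), and MT-CO2 (0.07 ± 0.03, adjusted p = 0.0459). The 2 lower ones were MT-CO1 and MT-ND4 (-0.08 ± 0.03, adjusted p = 0.0222). Scaling by mitochondrial mRNA left 8 of these 9 called in the same direction, where 57.2% of genes passed (27.9% higher and 29.3% lower), and MT-CO2 did not pass. The other 6 mRNAs did not pass in the 10 libraries and lay between -0.06 (MT-ND4L) and 0.15 (MT-ND6). Calls and p-values from the 10 are a description, since those libraries were kept by the share of these genes.

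In the libraries labelled shYAP1_H2O2 against shNC_H2O2, 1 of the 16 members, MT-RNR1, was higher and none lower in all 12 libraries, where 43% of genes passed (22% higher and 21% lower). DESeq2 called the same gene and no lower one, and no other member reached an unadjusted p under 0.05. Among the 10 libraries' results, 2 members were higher (both rRNAs) and 11 lower, where 57.3% of genes passed (28.8% higher and 28.5% lower). The 11 were mRNAs of all 4 complexes that the chromosome contributes to. After MT-CO3 they were led by MT-ND3 (-0.58 ± 0.03), MT-ND1 (-0.55 ± 0.03), MT-CYB, the cytochrome b of complex III (-0.45 ± 0.04), and MT-ATP6, the proton channel subunit of ATP synthase (-0.41 ± 0.03). The rest lay between -0.35 ± 0.03 (MT-ND2) and -0.20 ± 0.06 (MT-ND5). MT-ATP8 (-0.44 ± 0.24) and MT-ND6 (-0.29 ± 0.14) did not pass. Scaled by mitochondrial mRNA, 7 members were higher and 3 lower (MT-CO3, MT-ND3 and MT-ND1), where 66.2% of genes passed (55.8% higher and 10.4% lower). On that scale 4 mRNAs, MT-CO1, MT-ND4L, MT-ND4 and MT-ND5, were called in the opposite direction from the library scaling. The direction of those 4 thus depended on the scale. Here too the calls from the 10 libraries are a description.

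For shYAP1_H2O2 against shNC, which shares its libraries with both other comparisons, MT-RNR1 was again the only member called in all 12 libraries (1 higher and 0 lower, where 32.5% of genes passed, 17.4% higher and 15.1% lower). DESeq2 called MT-RNR1 alone as well, and the members at an unadjusted p under 0.05 were MT-RNR1 and MT-RNR2. In the 10 libraries 3 were higher and 10 lower, where 46.8% passed (24% higher and 22.8% lower). The 3 were MT-RNR1 (1.51 ± 0.18), MT-RNR2 and MT-TP (0.66 ± 0.09). MT-ATP6 (-0.46 ± 0.03), MT-ND3 (-0.46 ± 0.04), MT-CYB (-0.46 ± 0.04) and MT-CO1 (-0.45 ± 0.03) were the lowest. Scaled by mitochondrial mRNA, 6 members were higher and 3 lower in the same libraries, where 60.4% of genes passed (54.2% higher and 6.14% lower), and MT-ND2 and MT-CO2 turned from lower to higher. Leaving out shNC replicate 4 alone gave 3 higher members in place of 1, with the share of all genes in that fit not given here. Calls made without libraries of high share are a description, since those libraries were set aside for the share of these genes.

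**Figure D3:**
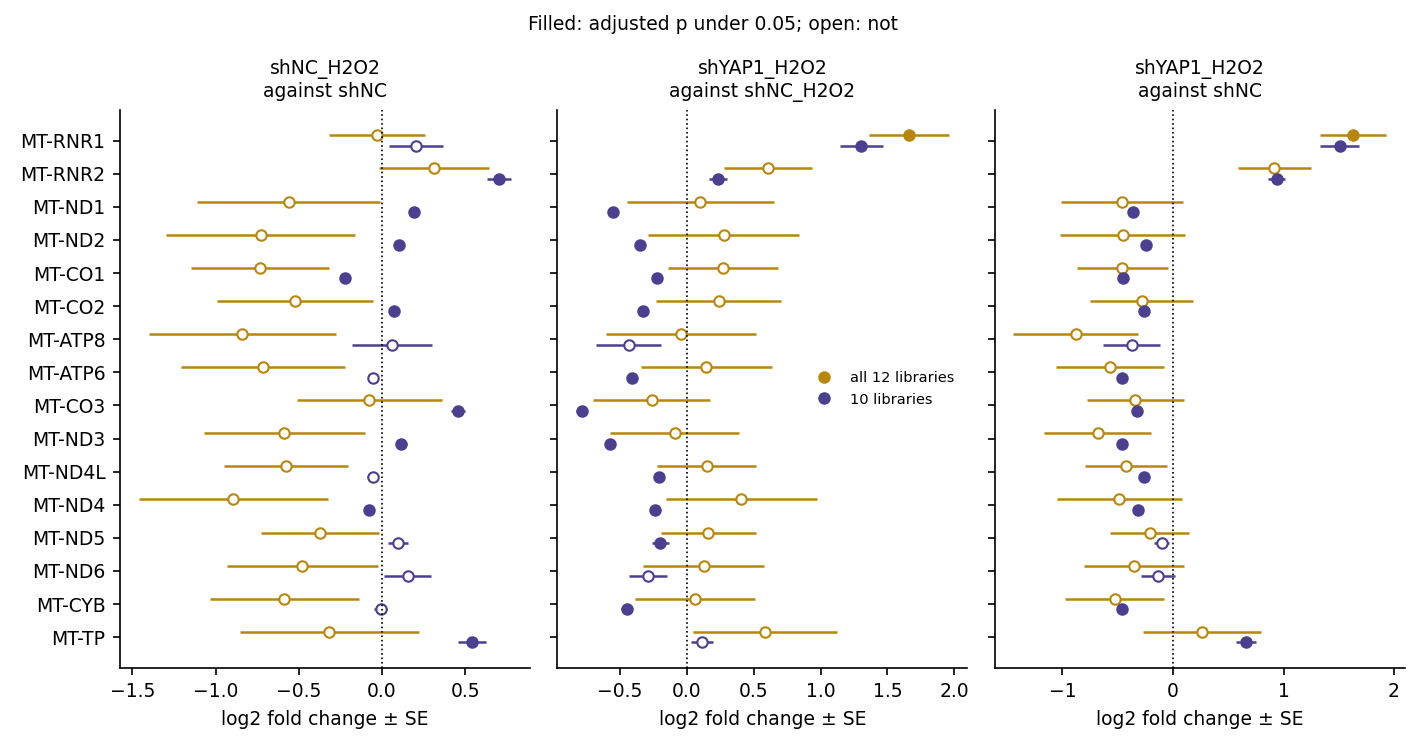
Log2 fold change (x axis) ± SE of each member that passed the filter (y axis, in chromosome order) in the 3 comparisons, from all 12 libraries and from the 10 without both libraries of high mitochondrial share. Filled points passed at an adjusted p under 0.05: with 12 libraries only MT-RNR1 did, in the comparisons with shYAP1_H2O2.

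The errors of these fold changes were far larger with the 2 libraries than without them. The SE of the mRNA fold changes for shNC_H2O2 against shNC was 0.36 (MT-ND5) to 0.57 (MT-ND4) with 12 libraries. With 10 it was 0.03 to 0.06 for all mRNAs except MT-ND6 (0.14) and MT-ATP8 (0.24). MT-ATP8 and MT-ND6, which had the fewest counts of the 13 mRNAs, also varied most among mates: MT-ATP8 was at 105, 119 and 72.9 CPM in the 3 other shNC libraries and MT-ND6 at 204, 238 and 163 CPM.

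Levels per kilobase of gene put the complex IV mRNAs first in each group (10 libraries). In shNC, MT-CO1 was at 8494 ± 129 CPM per kb, MT-CO2 at 6768 ± 193 and MT-CO3 at 5296 ± 134 (mean ± SD, n = 3), and these did not overlap. In shNC_H2O2 the 3 overlapped, with MT-CO3 at 7315 ± 347, MT-CO1 at 7315 ± 256 and MT-CO2 at 7144 ± 216 (n = 4). In shYAP1_H2O2 they were again apart, at 6260 ± 298 (MT-CO1), 5683 ± 251 (MT-CO2) and 4237 ± 271 (MT-CO3) (n = 3).

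The complex I mRNAs spread over a wide range per kilobase. In shNC, MT-ND4 was at 4114 ± 18.3 CPM per kb and overlapped with MT-ATP6 at 4080 ± 132. MT-ND2 (3346 ± 76.8), MT-ND4L (3260 ± 70.3) and MT-ND3 (3210 ± 176) followed, each overlapping with the next. MT-ND1 (2859 ± 36.6), MT-CYB (2638 ± 55.4) and MT-ND5 (1035 ± 68.6) came after them without overlap. MT-ATP8 (479 ± 115) and MT-ND6 (384 ± 70.9) were lowest and overlapped, and they held ranks 12 and 13 in all 3 groups. MT-ND5 held rank 11 and MT-CYB rank 10 in each group. The lowest level was thus that of the minus-strand mRNA, which was counted with a handling of strand that is not given in the sources used here, so reads from its opposite strand may be among its counts. Selection with oligo(dT) also depends on the tail of each RNA, which was not measured here.

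By complex, the 7 complex I mRNAs together made up 36.1 to 39.3 of each 100 mRNA counts in the 10 libraries, and 42.8 and 40.5 in the 2 of high share. The 3 complex IV mRNAs made up 48.1 to 50.7 in the 10, against 43.8 and 47.25. The 2 of complex V made up 6.42 to 6.84 in the 3 other shNC libraries, 6.2 to 6.43 in shNC_H2O2 and 6.02 to 6.25 in the 3 other shYAP1_H2O2 libraries.

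The tRNAs had few counts, with 1 exception. MT-TP carries proline and lies on the minus strand (chrM:15956-16023). The handling of strand is not given in the sources used here, so reads from its opposite strand may be among its counts. MT-TP had 803 to 3926 counts and passed the filter. It stood at 23.8, 20.6, 20.8 and 93.3 CPM in shNC, 32.5, 27.1, 37.2 and 30.7 in shNC_H2O2, and 33.7, 35.7, 87.8 and 33.8 in shYAP1_H2O2. MT-TP was high in both libraries of high share, and without them shNC lay below both other groups. MT-TY and MT-TC, for tyrosine and cysteine, had at most 20 and 18 counts in any library. MT-TF, for phenylalanine, had at most 5, and MT-TV and MT-TA had 0 in all 12, which allows a level of up to 0.0644 to 0.0974 CPM by library (3 counts, counting error only).

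In the 2 libraries of high share every mRNA was above the mates, by unequal factors. In shNC replicate 4 the ratio of CPM to the mean of its 3 mates ran from 2.56 (MT-ND5) to 4.51 (MT-ATP8), with a median of 3.24 over the 13 mRNAs. MT-RNR1 was at 1.73 times and MT-RNR2 at 2.28 times the mates. In shYAP1_H2O2 replicate 3 the mRNA ratios ran from 2.11 (MT-ND4L) to 3.30 (MT-ND1), with a median of 2.70, and the rRNAs were at 2.12 and 2.18. These libraries were chosen by this very share, so the ratios are a description.

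**Figure D4:**
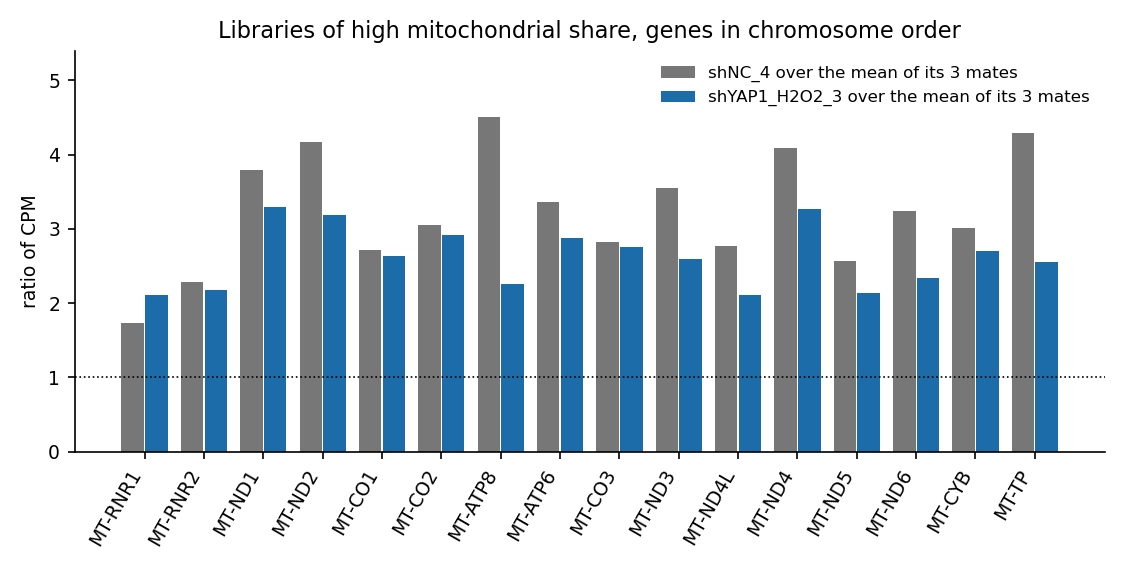
Ratio of CPM (y axis) in shNC replicate 4 and in shYAP1_H2O2 replicate 3 to the mean of the 3 group mates, for each member past the filter in chromosome order (x axis). All ratios lie above 1 (dotted line), from 1.73 to 4.51 and from 2.11 to 3.30.

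On the scale of mitochondrial mRNA, some members departed from all mates in the same direction in both libraries. The share of all genes that did so was not computed. Parts of 1 sum also depend on each other, so this is a description. MT-ND1, MT-ND2, MT-ATP6 and MT-ND4 made up more of the mRNA than in any mate in both libraries. MT-RNR1, MT-RNR2, MT-CO1, MT-CO3, MT-ND4L, MT-ND5 and MT-CYB made up less in both. MT-ND4 went from 12.9 to 12.98 in the mates to 16.5 of each 100 mRNA counts in shNC replicate 4, and from 12.9 to 13.8 to 15.3 in shYAP1_H2O2 replicate 3. MT-ND4L, which shares a transcript with MT-ND4, went from 2.15 to 2.24 to 1.91 and from 2.26 to 2.43 to 1.76. Hence per kilobase MT-ND4L was at 0.537 and 0.532 of MT-ND4 in these libraries and at 0.767 to 0.874 in the other 10. MT-ATP8 over MT-ATP6, another overlapping pair, was at 0.157 per kilobase in shNC replicate 4, just above the 0.0865 to 0.150 of the 10, and at 0.0979, within that range, in shYAP1_H2O2 replicate 3.

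Nuclear pseudogenes that are copies of mitochondrial DNA take reads of the same sequence. The tables listed 141 such copies by symbol, of which 121 had a count, and MTATP6P1 (chr1:633696-634376, GRCh38) alone held 76.7% of their counts. It differs from MT-ATP6 at 10 of 681 aligned bases (98.5% identity). Bases 116 to 175 of both, counted from the first base of MT-ATP6, are shown because they hold 3 of the differences, in capitals: C129T, A151C and A175G, with the base of MT-ATP6 first. Away from such bases a read fits both loci.
MT-ATP6: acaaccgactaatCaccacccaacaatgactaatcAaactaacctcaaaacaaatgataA
MTATP6P1: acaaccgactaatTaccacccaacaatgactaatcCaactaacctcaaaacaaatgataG

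The split of reads between gene and copy also differed in the 2 libraries. Counts of MTATP6P1 were 24.1% to 26.9% of those of MT-ATP6 in the other 10 libraries. They were 32.8% in shNC replicate 4 and 43.4% in shYAP1_H2O2 replicate 3. Counts of MTND2P28 (chr1:629640-630683), the copy of MT-ND2, went the opposite way, at 6.09% to 6.75% in the 10 and at 2.79% and 3.53%. MTCO1P12, MTCO3P12 and MTND4P12, the next by counts, were each at 0.394% or less of their gene in every library. In the 10 libraries the ranges of the 3 groups overlapped for MTATP6P1. All copies together took 0.0722% to 0.103% of counts in the 10 libraries, and 0.325% and 0.272% in the 2.

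**Figure D5:**
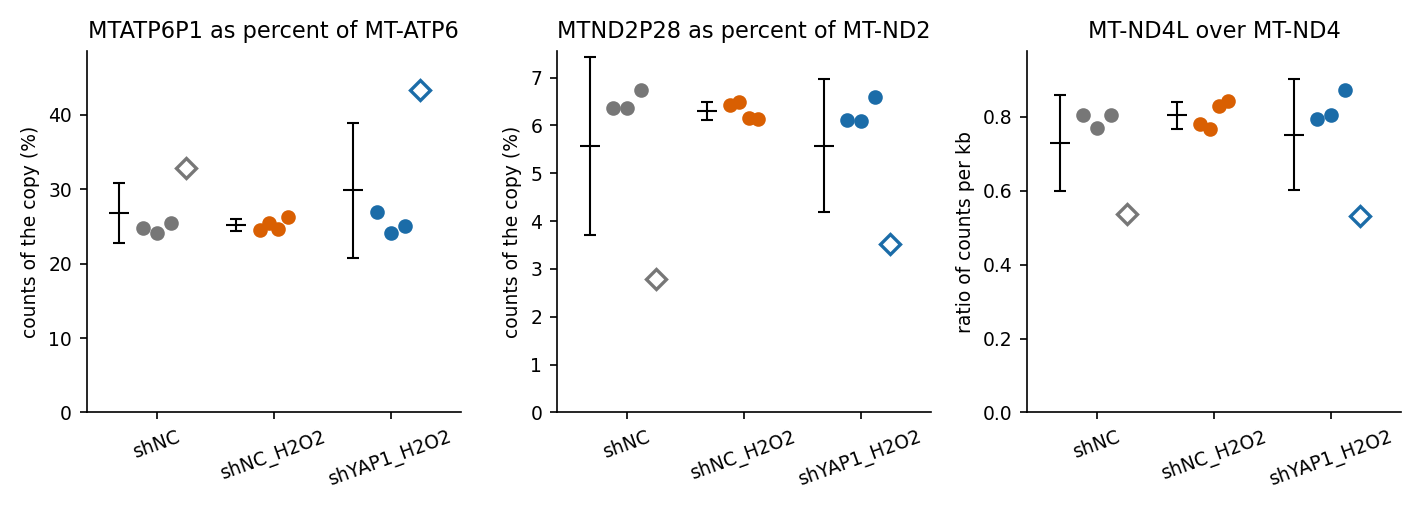
Counts of MTATP6P1 as a percentage of MT-ATP6, of MTND2P28 as a percentage of MT-ND2, and the ratio of MT-ND4L to MT-ND4 in counts per kilobase (y axes) in each library by group (x axis), with black marks for the mean ± SD of all 4. The open diamonds, shNC replicate 4 and shYAP1_H2O2 replicate 3, lie outside the other 10 libraries in each panel, for example at 32.8% and 43.4% for MTATP6P1.

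The nuclear genes that set these 2 libraries apart did so in part together. Of 11643 nuclear genes with at least 5 CPM of nuclear counts, 104 were at least 1.5 times above every mate in both libraries and 132 at least 1.5 times below. Pseudogenes were 18 of the 104 and 35 of the 132, and 2.731% of all 11643. PFN1P1, a processed pseudogene of profilin, was at 233.8 and 40.3 CPM of nuclear counts, where the mates were at 8.75 to 9.78 and 5.73 to 5.94. RN7SL1, the RNA of the signal recognition particle, was at 1.55 and 1.28 where the mates were at 16.7 to 46.6 and 9.30 to 30.2. Across the nuclear genes the log2 ratio to mates had a Spearman correlation with GC content of -0.456 in shNC replicate 4 and of 0.245 in shYAP1_H2O2 replicate 3, and a Pearson correlation of 0.584 between the 2 libraries (across genes, which are not replicates, and with no test). The labels name 2 sequencing instruments and tie no library to either. Whether preparation or sequencing differed for these 2 libraries was not tested.

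Most subunits of the same complexes are encoded in the nucleus. In shNC_H2O2 against shNC, where 22.6% of all genes were lower and 23.9% higher in the 12 libraries and 29.6% and 29.8% in the 10, complex I gave 11 lower and 3 higher of 37 subunits in the 12 and 20 and 4 in the 10. Complex II, which has no mitochondrial gene, gave 2 and 0 of 4 in both. Complex III gave 6 and 0 of 9 (7 and 1 in the 10), complex IV 6 and 1 of 14 (10 and 2) and complex V 13 and 0 of 18 (15 and 0). The list medians in the 12 libraries were -0.14, -0.28, -0.35, -0.345 and -0.35, beside 0.00 for all tested genes. ATP5MC1, a c-ring subunit of ATP synthase, fell from 50.1 ± 2.32 to 23.0 ± 2.58 CPM (-1.12 ± 0.08, adjusted p = 1.0e-08). COX7C (-0.73 ± 0.08) and NDUFA4 (-0.71 ± 0.09) of complex IV, UQCR10 (-0.60 ± 0.10) of complex III and NDUFB4 (-1.003 ± 0.06) of complex I also fell.

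Between the libraries labelled shYAP1_H2O2 and shNC_H2O2, where 22% of all genes were higher and 21% lower in the 12 libraries and 28.8% and 28.5% in the 10, complex I gave 10 higher and 4 lower (16 and 7 in the 10). Complex II gave 2 and 0 in both, complex III 2 and 1 (7 and 1), complex IV 5 and 2 (8 and 2) and complex V 6 and 1 (11 and 4). ATP5MC1 rose to 38.6 ± 0.925 CPM (0.74 ± 0.08, adjusted p = 1.5e-06), NDUFB4 rose by 0.90 ± 0.06 and COX7C by 0.54 ± 0.08. Of the 13 mitochondrial mRNAs none passed in this comparison in the 12 libraries, and in the 10 they gave 0 higher and 11 lower by library scaling and 4 higher and 3 lower when scaled by mitochondrial mRNA. The difference between nuclear and mitochondrial subunits was not tested.

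Proteins of the mitochondrial ribosome, which binds the 2 rRNAs, are encoded in the nucleus. In the 12 libraries 29 of 75 were lower and 6 higher in shNC_H2O2 against shNC, where 46.6% of all genes passed, and 35 were higher and 5 lower in shYAP1_H2O2 against shNC_H2O2, where 43% passed. In the first of these the share of them called was thus near that of all genes. In the 10 libraries the counts were 46 lower and 7 higher (59.4% of all genes passed), then 47 higher and 7 lower (57.3%). Their medians in the 12 were -0.19 and 0.24. MRPL24 fell by 1.04 ± 0.09 and rose by 0.94 ± 0.09, and MRPL3 was at -0.80 ± 0.11 and 0.90 ± 0.11. Several of these genes lie among neighbours that moved the same way. MRPL24 lies on chromosome 1, where the 50 genes nearest to it had a median of -0.54 in the first comparison and 0.61 in the second, and MRPL3 and NDUFB4 lie on chromosome 3, with neighbour medians of -0.69 and -0.66 in the first. Of the 35 ribosomal protein genes called in the first comparison with 50 neighbours to compare, 10 had neighbours shifted by at least 0.25 the same way. The median difference from neighbours was -0.20 and 0.23 for the ribosomal proteins and -0.43 and 0.24 for complex V.

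Of 10 genes of mitochondrial transcription, 2 were higher and 1 lower in shNC_H2O2 against shNC in the 12 libraries, under the 46.6% of all genes called (3 and 4 in the 10, beside 59.4%). In shYAP1_H2O2 against shNC_H2O2, 0 were higher and 2 lower, under the 43% of all genes (2 and 4 in the 10, beside 57.3%). POLRMT, the polymerase, rose in shNC_H2O2 (0.47 ± 0.14, adjusted p = 0.0124, and 0.30 ± 0.04 in the 10), beside chromosome 19 neighbours at 0.33. The transcription factor TFB2M fell (-0.30 ± 0.10, adjusted p = 0.0219). TFAM did not pass in the 12 libraries (0.26 ± 0.11, adjusted p = 0.0667) and did in the 10 (0.20 ± 0.04, adjusted p = 6.75e-05). MTERF4, which acts in assembly of the mitochondrial ribosome, rose (0.28 ± 0.06) and then fell (-0.43 ± 0.06), beside chromosome 2 neighbours at 0.27 and -0.31. TEFM, the elongation factor, was at -0.18 ± 0.13 (adjusted p = 0.265) in shNC_H2O2 against shNC in the 12 and passed in the 10 (-0.26 ± 0.09, adjusted p = 0.0155).

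Of 26 genes of mitochondrial RNA processing and stability, 4 were higher and 4 lower in shNC_H2O2 against shNC (4 and 9 in the 10 libraries), and 5 and 4 in shYAP1_H2O2 against shNC_H2O2 (11 and 5 in the 10). In the 12 libraries both counts lie under the 46.6% and 43% of all genes. In the 10 the first lies under the 59.4% of all genes and the second above the 57.3%. PRORP, the nuclease of RNase P that cuts the 5′ ends of the tRNAs between genes, was at 7.71 ± 0.288, 13.4 ± 0.695 and 5.88 ± 0.475 CPM in the 3 groups (0.80 ± 0.09, adjusted p = 2.3e-06, then -1.19 ± 0.09, adjusted p = 5.2e-08). Its partner TRMT10C moved oppositely (-0.79 ± 0.09, then 0.61 ± 0.09), beside chromosome 3 neighbours at -0.59 and 0.46. ELAC2, which cuts the 3′ ends, did not pass in the 12 libraries (adjusted p = 0.266, then 0.0963) and passed in both comparisons in the 10, at -0.14 (adjusted p = 0.00144) and 0.10 (adjusted p = 0.0145). LRPPRC and SLIRP form a complex that protects mitochondrial mRNAs: LRPPRC rose in shNC_H2O2 (0.21 ± 0.07, neighbours at 0.22) and SLIRP fell (-0.39 ± 0.10), and neither passed between shYAP1_H2O2 and shNC_H2O2 in the 12 or the 10 libraries. The poly(A) polymerase MTPAP (0.23 ± 0.09, adjusted p = 0.0485) and the helicase SUPV3L1 of the mitochondrial RNA degradosome (0.42 ± 0.08, adjusted p = 0.000387) rose in the latter comparison, and its nuclease PNPT1 did not pass (0.03 ± 0.06).

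Among 18 genes of mitochondrial DNA maintenance, 2 were higher and 4 lower in shNC_H2O2 against shNC (4 and 5 in the 10 libraries). In shYAP1_H2O2 against shNC_H2O2 they were 4 and 5 (7 and 6 in the 10). Of all genes 46.6% and 43% were called in the 12 libraries, and 59.4% and 57.3% in the 10. TK2, the mitochondrial thymidine kinase that supplies DNA precursors, was at 16.9 ± 1.82 CPM in shNC, 68.4 ± 3.95 in shNC_H2O2 and 26.5 ± 3.04 in shYAP1_H2O2. It rose by 2.02 ± 0.10 (adjusted p = 1.6e-10) and fell by 1.37 ± 0.10 (adjusted p = 1.9e-08), with neighbours at 0.04 in both. The polymerase POLG passed in neither comparison in the 12 or the 10 libraries, and the helicase TWNK rose in shYAP1_H2O2 (0.38 ± 0.11, adjusted p = 0.0103). Of 15 tested regulators of mitochondrial biogenesis, 7 were higher and 2 lower (8 and 3 in the 10), then 6 and 4 (8 and 4). These stand beside the same 46.6% and 43% in the 12 and 59.4% and 57.3% in the 10. PPARGC1A, a coactivator of mitochondrial gene programmes, was at 0.01 ± 0.16 in the first comparison (0.20 in the 10, adjusted p = 0.0279) and rose by 0.43 ± 0.16 in the second (adjusted p = 0.0464). NRF1 passed in neither in the 12 and in the second in the 10 (0.21, adjusted p = 0.00555). The copy number of mitochondrial DNA was not measured.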

How the data were processed

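The deposited files held raw counts per gene and library, made by the authors with HISAT2 and featureCounts (Subread) on GRCh38, with DESeq2 also listed, per the submitters' processing notes; their order, versions, strand setting and treatment of multiply mapped or overlapping reads were not stated there or in the labels. RNA was selected with oligo(dT), per the labels' protocols. Counts were tested with edgeR 4.0.16 (R 4.3.3; filterByExpr, TMM, robust quasi-likelihood fit, 1 mean per group, all 12 libraries; 19268 genes tested), with Benjamini-Hochberg adjustment over all tested genes and a threshold of 0.05. CPM are TMM-scaled. The test was run on simulated data with known changes first. Gene positions and sequences came from GENCODE release 29 (GRCh38). Members and gene lists were chosen with earlier results of these data known. Named genes were all mitochondrial mRNAs and rRNAs, the 3 tRNAs with most counts, a fixed panel of nuclear genes, the 5 nuclear copies with most counts, and from each nuclear list, in the first 2 comparisons, up to 2 called rises and 2 called falls with a mean of at least 5 CPM; KRT8, EPCAM and the other cell markers were taken from fixed marker lists, and PFN1P1 and RN7SL1 led the nuclear genes apart in both libraries. Alternatives changed scaling, filter, tool (DESeq2 1.42.0), replicate block and libraries; leaving out both libraries together with scaling by mitochondrial mRNA was chosen after seeing the data. Total counts ran from 30789997 to 46582873. No library was left out of the main test. Protein sequences were not used here.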

Additional observations from a re-analysis of the deposited data

Results flagged for a closer look

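In each group of 4, the highest or lowest library was compared with the others (Dixon's test at the 95% level), for the mitochondrial share, each member's CPM and each member's counts per 100 counts of mitochondrial mRNA. A library stood apart in 38 of 99 such groups. Chance gives about 1 in 20 for separate groups, which these are not: 16 of the 38 are the share or a CPM of shNC replicate 4 and 16 those of shYAP1_H2O2 replicate 3, libraries already singled out by the share that these members make up, so their flags are a description and no test.

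The mitochondrial share stood apart in shNC replicate 4 (13.9%) and in shYAP1_H2O2 replicate 3 (11.3%). In CPM, shNC replicate 4 stood apart in 15 members: MT-RNR2 (11760 CPM), MT-ND1 (10377 CPM), MT-ND2 (14545 CPM), MT-CO1 (35628 CPM), MT-CO2 (14146 CPM), MT-ATP8 (447 CPM), MT-ATP6 (9346 CPM), MT-CO3 (11745 CPM), MT-ND3 (3943 CPM), MT-ND4L (2684.5 CPM), MT-ND4 (23190 CPM), MT-ND5 (4806 CPM), MT-ND6 (654 CPM), MT-CYB (9064 CPM) and MT-TP (93.3 CPM). The remaining member, MT-RNR1, was highest there without standing apart. Likewise, shYAP1_H2O2 replicate 3 stood apart in 15 members: MT-RNR1 (3552 CPM), MT-RNR2 (21623 CPM), MT-ND1 (7070.5 CPM), MT-ND2 (9403 CPM), MT-CO1 (25507 CPM), MT-CO2 (11370 CPM), MT-ATP6 (5834 CPM), MT-CO3 (9137 CPM), MT-ND3 (2105 CPM), MT-ND4L (1715 CPM), MT-ND4 (14945 CPM), MT-ND5 (3746 CPM), MT-ND6 (432 CPM), MT-CYB (5951 CPM) and MT-TP (87.8 CPM). There the remaining member was MT-ATP8.

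Relative to mitochondrial mRNA, shNC replicate 4 still stood apart in 3 complex I mRNAs, MT-ND1 (7.38 per 100), MT-ND2 (10.3 per 100) and MT-ND4 (16.5 per 100), and shYAP1_H2O2 replicate 3 in MT-ND1 (7.26 per 100). In shNC_H2O2, replicate 2 was low in MT-ND6 (189.8 CPM) and in MT-ND5 (4.17 per 100).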

How the results depend on the processing

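MT-RNR1 kept its direction and call in shYAP1_H2O2 against both other groups under 22 alternatives. The other calls turned on the 2 libraries of high mitochondrial share. For shNC_H2O2 against shNC, none higher and none lower became 7 and 2 without both, 6 and 2 without both and scaled by mitochondrial mRNA (chosen after seeing the data), and 1 higher under DESeq2. For shYAP1_H2O2 against shNC_H2O2, 1 and 0 became 2 and 11, then 7 and 3. For shYAP1_H2O2 against shNC, 1 and 0 became 3 and 10, then 6 and 3, and 2 higher with library size alone. Leaving out 1 library at a time gave 1 to 3 higher in this last comparison, 3 without shNC replicate 4 (MT-RNR2, and MT-TP at 1.13, adjusted p = 0.0324), and the same counts as the main test in the others. Of all genes, 46.6%, 43% and 32.5% were called in the 3 comparisons in turn in the main test. The shares were 59.4%, 57.3% and 46.8% without both, and 57.2%, 66.2% and 60.4% with the added scaling. For DESeq2, library size alone and single libraries left out, the share of all genes is not given here.

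Log2 fold changes that reversed without both libraries were, for shNC_H2O2 against shNC, MT-ND1 at 0.20 (0.18 when also scaled by mitochondrial mRNA), MT-ND2 at 0.10 (0.0933), MT-CO2 at 0.0702, MT-CO3 at 0.46 (0.45), MT-ND3 at 0.12 (0.10) and MT-TP at 0.54 (0.53). For shYAP1_H2O2 against shNC_H2O2 they were MT-ND1 at -0.55 (-0.19), MT-ND2 at -0.35, MT-CO1 at -0.22, MT-CO2 at -0.33, MT-ATP6 at -0.41, MT-ND4L at -0.21, MT-ND4 at -0.24, MT-ND5 at -0.20 and MT-CYB at -0.45. For shYAP1_H2O2 against shNC, MT-ND2 at 0.11, MT-CO2 at 0.10 and MT-ND5 at 0.25 reversed only with the added scaling. A further 84 changes of sign had neither value past the threshold. The cause of these changes was not tested.

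The log2 ratio of mean mitochondrial shares reversed without both libraries, to 0.16 for shNC_H2O2 against shNC and -0.25 for shYAP1_H2O2 against shNC_H2O2. Leaving out 1 library at a time, it ran from -0.52 to 0.16, from -0.25 to 0.32 and, for shYAP1_H2O2 against shNC, from -0.62 to 0.35 (the last without shNC replicate 4).

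Whether the replicate numbers pair the libraries could not be decided. Deviations of same-numbered libraries correlated at -0.50 to 0.46, over 0.1 in 4 of 12 pairs. The libraries of high share weigh on these values: shNC replicate 4 and shYAP1_H2O2 replicate 3 correlated at 0.596, and the lowest same-number value holds 1 of them. With a replicate block MT-RNR1 was at 1.62 (adjusted p = 0.00109) and 1.57 (adjusted p = 0.00224), and all 48 gene results kept their call. Low counts limit what can be said of MT-TF, MT-TC and MT-TY, and MT-ATP8 and MT-ND6 had the largest errors of the mRNAs in the 10 libraries.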
